A study of Mus musculus with 9 samples.

Results

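The regions described here are those where TGIF1 was already found on chromatin before its induction. Peaks of the 8 deposited lists that overlapped by at least 1 bp were merged into 60709 regions. A region was taken when it held a peak of both TGIF1 libraries from ethanol-treated cells, which left 465 regions, or 0.766% of all. The regions were thus chosen by their peaks in the TGIF1 EtOH lists, and values from those lists are given as a description.

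The study used chromatin immunoprecipitation with sequencing. Its mouse cells were c-kit+ bone marrow cells of strain C57BL/6, transformed with the fusion oncogene MLL-AF9. All cells also carried the pMIG-TGIF1-ER construct, in which TGIF1 is joined to a hormone-binding domain of the estrogen receptor, and ethanol-treated cells carried it too. The 4 groups were TGIF1 with EtOH, TGIF1 with 4-OHT for 20 h, MEIS1 with EtOH and MEIS1 with 4-OHT, each with 2 libraries. An IgG sample of the same cells was not analysed here, so whether each peak was specific to its antibody was not tested. Peaks under EtOH may come from the cells' own TGIF1 or from uninduced TGIF1-ER, and these cannot be told apart. Effects of 4-OHT and of TGIF1 activity also cannot be told apart, since no cells without the construct were among the samples.

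TGIF1 is a homeodomain protein of the TALE class. It is known as a corepressor that recruits histone deacetylases and limits transcription driven by SMAD proteins and by retinoid receptors. MEIS1 belongs to the same class, recognises a closely related short DNA motif, and works with HOX and PBX proteins in MLL-rearranged leukaemia, where its level is high. Fusion to the receptor domain holds a protein inactive until 4-hydroxytamoxifen (4-OHT) is added.

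The lists gave positions, lengths and summits of peaks and no heights or read numbers, so the depth of each library was unknown. The TGIF1 EtOH lists were short, with 2764 and 592 peaks, against 12141 to 48829 in the other 6. Of the peaks of TGIF1 EtOH replicate 1, 501 (18.1%) lay in the 465 regions. Of those of replicate 2, 470 (79.4%) did. The shorter list thus set most of the selection. Whether replicates were independent cultures is not stated, so p-values measure only the spread between these libraries, which may be technical.

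In 461 of the 465 regions the EtOH peaks of replicates 1 and 2 overlapped directly, by a median of 307 bp over all regions. The other 4 were joined only through a peak of another list, across gaps of 22, 79, 273 and 543 bp. The smallest direct overlaps were 92 bp on chromosome 3 from 127539990 to 127540984 and 93 bp on chromosome 15 from 12250775 to 12252943 (all coordinates mm9). Just outside the selection, neighbouring regions on chromosome 1 from 87479279 to 87480195 and from 87481236 to 87482879 held a peak of 1 EtOH library each, 1040 bp apart.

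Almost all of the sites occupied before induction were occupied after it. Both TGIF1 4-OHT libraries had a peak in 451 of 465 regions (97.0%, exact 95% interval 95 to 98.3%), against 18.2% of all merged regions. By library, 461 regions (99.1%) had a peak in TGIF1 4-OHT replicate 1 and 452 (97.2%) in replicate 2, against 18.9% and 43.2% of all merged regions. At least 1 TGIF1 4-OHT library had a peak in 462 (99.4%), against 43.8% of all merged regions. Among regions with a peak in only 1 EtOH library, 1896 of 2316 carried both 4-OHT peaks (81.9%, exact 95% interval 80.2 to 83.4%). That share was 83.9% where the EtOH peak came from replicate 1 and 45.1% where it came from replicate 2. Regions with no TGIF1 EtOH peak had both in 15.01% of cases. Intervals cover counting error only, and regions are not replicates.

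**Figure D1:**
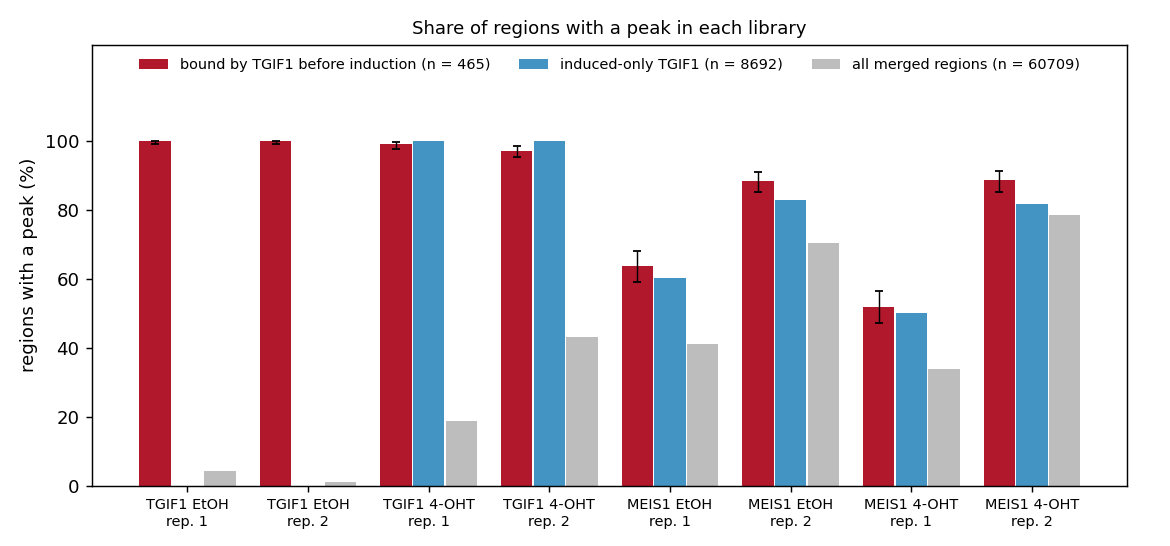
Share of regions with a peak (vertical axis, percent) in each of the 8 libraries, for the 465 regions bound by TGIF1 before induction (exact 95% intervals as error bars), the 8692 induced-only TGIF1 regions and all 60709 merged regions. The first 465 stand at 100% in the TGIF1 EtOH libraries because they were chosen there, and exceed the induced-only regions by 1.80 to 6.72 percentage points in the MEIS1 libraries.

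The 3 regions without a TGIF1 4-OHT peak were of different kinds. The region on chromosome 15 from 75932952 to 75936444 held peaks of 3447 and 3493 bp in the EtOH libraries and none in the 6 other lists. A narrow region on chromosome 7 from 36063477 to 36063976 also held EtOH peaks alone, of 452 and 491 bp, with summits 4 bp apart. The third, on chromosome 6 from 47603895 to 47607002, belonged to a tract of long peaks. In that tract 7 of the 465 regions lay within 116772 bp, from 47603895 to 47720666. Peaks there covered 25.01% and 12.3% of the tract in TGIF1 EtOH replicates 1 and 2, 26.6% in TGIF1 4-OHT replicate 1, 29.5% in MEIS1 EtOH replicate 1 and 29.8% in MEIS1 4-OHT replicate 1. In the other 3 libraries the covered part was 1.32% (TGIF1 4-OHT replicate 2), 1.55% (MEIS1 EtOH replicate 2) and 6.66% (MEIS1 4-OHT replicate 2). These 3 libraries have the longest lists of the series, so the tract separated libraries in a way that treatment and antibody did not. Without it 458 regions remained, and 98.3% of them had both TGIF1 4-OHT peaks.

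TGIF1 peaks at these regions were longer after induction. The median length of the longest TGIF1 peak per region was 396 bp in EtOH replicate 1 and 347 bp in EtOH replicate 2. After 4-OHT it was 692 bp in replicate 1 and 1183.5 bp in replicate 2, so both induced libraries lay above both EtOH libraries. The ratio of the geometric means of these medians was 2.44, or 1.29 on the log2 scale. Of the 451 regions with all 4 TGIF1 peaks, 447 had both induced peaks longer than both EtOH peaks. At regions with a peak in only 1 EtOH library, the medians in replicates 1 and 2 were 271 and 323 bp under EtOH. Under 4-OHT they were 535 and 873 bp, so longer induced peaks were not particular to the 465 regions. Peaks were also longer over the whole induced lists, by 0.69 on the log2 scale, and library depth, which can set peak length, was unknown. Relative to each list's own median the lengthening was 0.60, or 1.51-fold, but this value is no correction for the list-wide lengthening. The regions held 79.4% of the peaks of EtOH replicate 2, so their median had to lie near that list's own (ratio 1.03). They were a small part of the longer 4-OHT lists, so list length and the selection enter the value. No test was read from these lengths, because the EtOH lists chose the regions.

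**Figure D2:**
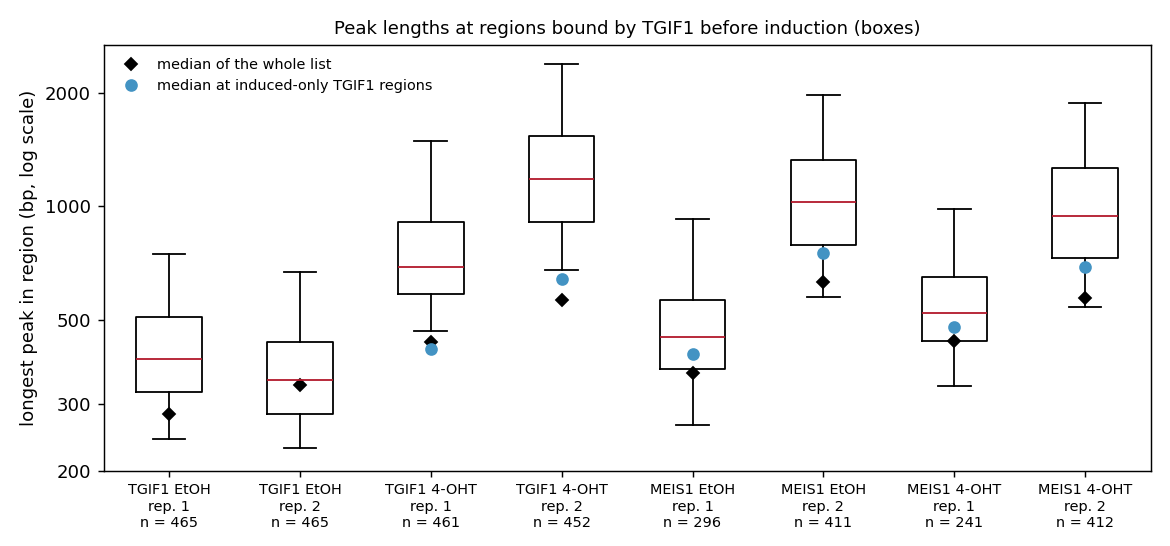
Length of the longest peak (bp, log axis) in each of the regions bound by TGIF1 before induction, by library. Boxes show quartiles with the median as a line, whiskers reach from the 5th to the 95th percentile, diamonds mark the median of the whole list and circles the median at induced-only regions. The TGIF1 medians move from 396 and 347 bp under EtOH to 692 and 1183.5 bp under 4-OHT.

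Sites seen before induction were concentrated among the longest induced peaks. The 11039 regions with a peak of both TGIF1 4-OHT libraries were put into 10 classes of equal size by the mean length percentile of their 4-OHT peaks. The 465 regions made up 18.9% of the longest class, 10.3% of the next, and 6.61% of the one below it. In each of the 4 shortest classes they made up at most 0.181%. Counting regions with a peak in at least 1 EtOH library, the share went from 2.81% in the shortest class to 53.4% in the longest, with each class above the one before. Of the 451 regions with both induced peaks, 323 (71.6%) lay in the 2 longest classes. In the 4-OHT lists their median percentile of length was 88.4 in replicate 1 and 91.0 in replicate 2. At induced-only regions, which had a peak of both 4-OHT libraries and of neither EtOH library, it was 44.1 and 61.6.

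MEIS1 was present in at least 1 library at most of the regions, and shares were near those of induced-only sites. Both MEIS1 EtOH libraries had a peak in 287 of 465 regions (61.7%, exact 95% interval 57.1 to 66.2%), against 37.3% of all merged regions and 59.0% of the 8692 induced-only regions. Both MEIS1 4-OHT libraries had one in 232 (49.9%, exact 95% interval 45.3 to 54.5%), against 32.4% of all merged regions and 49.4% of the induced-only ones. All 4 MEIS1 libraries had one in 208 regions (44.7%), close to the 44.8% of induced-only regions. These 208 are also all the regions of the series with a peak in every list, which make up 0.343% of merged regions. That follows by construction, since a region with a peak in every list holds both TGIF1 EtOH peaks.

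By single library, 296 regions (63.7%) had a peak in MEIS1 EtOH replicate 1 and 411 (88.4%) in EtOH replicate 2, against 41.2% and 70.6% of all merged regions. Under 4-OHT the numbers were 241 (51.8%) in replicate 1 and 412 (88.6%) in replicate 2, against 33.9% and 78.5%. The replicates thus differed more than the treatments, and the treatments overlapped. The mean share moved from 76.0 ± 17.5% (SD, n = 2) to 70.2 ± 26% (SD, n = 2), a difference of -5.81 percentage points (two-sided exact permutation p = 1.0; the smallest p of 2 against 2 libraries is 0.333). The direction turned without MEIS1 EtOH replicate 2 (6.56 points) and without MEIS1 4-OHT replicate 1 (12.6 points). Leaving out MEIS1 EtOH replicate 1 gave -18.2 points, and leaving out MEIS1 4-OHT replicate 2 gave -24.2. In replicate 1 the number of regions with MEIS1 under 4-OHT was 0.814 of that under EtOH, and the whole list was 0.806 as long. In replicate 2 the regions stood at 1.00 and the whole list at 1.12. A single region had both MEIS1 EtOH peaks and neither 4-OHT peak, and 0 regions showed the reverse.

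MEIS1 peak lengths at the regions did not separate the treatments either. The medians were 451.5 and 1028 bp in the EtOH libraries and 522 and 946.5 bp in the 4-OHT libraries. The log2 ratio of 4-OHT over EtOH was 0.05, smaller than the difference between replicates (exact permutation test, two-sided, p = 1.0). Leaving out MEIS1 EtOH replicate 1 turned it to -0.55, and leaving out MEIS1 4-OHT replicate 2 turned it to -0.38. It came to 0.64 when MEIS1 EtOH replicate 2 was left out and to 0.47 when MEIS1 4-OHT replicate 1 was. In replicate 1, 149 of 215 regions with both peaks had the longer MEIS1 peak under 4-OHT, whereas in replicate 2 only 141 of 403 did.

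MEIS1 peaks were compared between these regions and induced-only sites, overall and at like lengths of the induced TGIF1 peak. Across the 4 MEIS1 libraries, the share of regions with a MEIS1 peak was higher than at induced-only regions in 4 of 4, by 1.80 to 6.72 percentage points (mean 4.32 ± 2.16, SD, n = 4). The two-sided exact sign-flip permutation test gave p = 0.125, the smallest that 4 libraries allow. MEIS1 peaks there were longer too, by 0.29 ± 0.18 on the log2 scale (SD, n = 4; higher in 4 of 4 libraries, exact sign-flip p = 0.125). Where both kinds of region were held to the middle range of TGIF1 4-OHT lengths, with 225 regions against 1267, the difference in share was 0.834 points (exact sign-flip p = 0.5). With the induced-only regions weighted to the same spread over the 10 length classes, a setting added after the data were seen, it was -1.60 points (negative in 4 of 4 libraries, -2.04 to -1.30, exact sign-flip p = 0.125).

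The sign of the difference was not the same in all length classes, in a split chosen after the data were seen. The change between classes was itself not tested. In the 2 longest classes, 323 regions were compared with 1173 induced-only regions. MEIS1 EtOH replicate 1 had a peak at 70.3% of the former and 65.0% of the latter, and the excess over the 4 libraries was 1.89 to 5.23 points (higher in 4 of 4, exact sign-flip p = 0.125). In the 4 classes below, 124 regions were compared with 3388. There MEIS1 EtOH replicate 1 had a peak at 49.2% of the regions against 65.0% of induced-only ones, and EtOH replicate 2 at 80.6% against 88.8%. The 4-OHT libraries gave 42.7% against 53.2% and 80.6% against 87.7%, so all 4 differences were negative, from -15.8 to -7.05 points (exact sign-flip p = 0.125). The 4 shortest classes held 4 of the regions, too few to compare. Lengths of the induced peaks were not matched within these ranges. The longest class held 209 of the 323 regions and 514 of the 1173 induced-only ones. The class next below the 2 longest held 73 of the 124 regions and 741 of the 3388 induced-only ones.

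**Figure D3:**
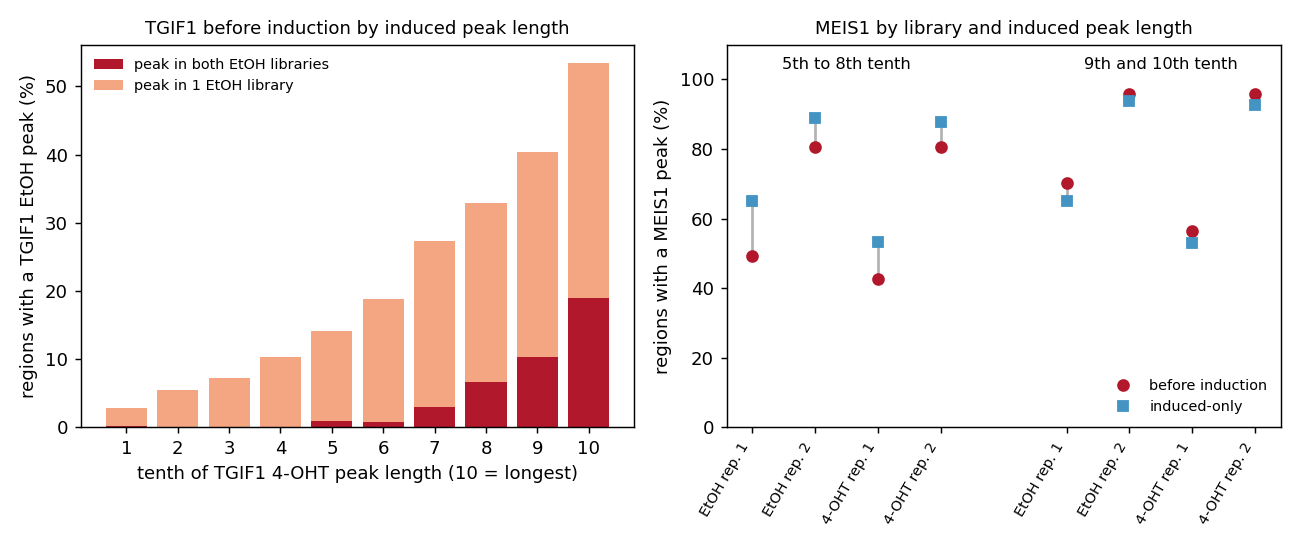
Left, percent of regions with both TGIF1 4-OHT peaks that also had a TGIF1 EtOH peak, in 10 classes of induced peak length. Right, percent of regions with a MEIS1 peak in each MEIS1 library, for regions bound before induction (circles) and induced-only regions (squares), in 2 ranges of that length. The circles differ from the squares by -15.8 to -7.05 points in the 5th to 8th class and lie 1.89 to 5.23 points above them in the 9th and 10th.

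TGIF1 alone was found at 35 of the regions, which had no peak in any MEIS1 list (7.53%, exact 95% interval 5.30 to 10.3%), against 10.1% of all merged regions and 12.6% of induced-only regions. Regions with a peak in only 1 TGIF1 EtOH library had no MEIS1 peak in 16.2% of cases. Of the 35 regions, 30 had all 4 TGIF1 peaks. An example lies on chromosome 17 from 85189335 to 85190471, with TGIF1 peaks of 594 and 518 bp under EtOH and 677 and 1137 bp under 4-OHT. Its 4 TGIF1 summits lay within 2 bp of the summit in EtOH replicate 1. On chromosome 16 from 4718880 to 4719622 the lengths were 566 and 458 bp, then 670 and 743 bp. On chromosome X from 7673410 to 7674225 they were 568 and 450 bp, then 614 and 816 bp. TGIF1 summits of the other 3 libraries lay 7 to 27 bp from that of EtOH replicate 1 at the chromosome 16 site and 35 to 52 bp from it at the chromosome X site. The 2 MEIS1-free regions with the longest EtOH peaks for their lists, on chromosome 15 (above) and on chromosome 10 from 57686301 to 57689836, had peaks of 2703 to 3493 bp and none in TGIF1 4-OHT replicate 2.

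Within the 451 regions with all 4 TGIF1 peaks, the lengthening went with the number of MEIS1 lists that had a peak there. At the 30 regions with no MEIS1 list the median ratio of 4-OHT to EtOH length was 1.35 in replicate 1 and 2.13 in replicate 2. At the 208 regions with all 4 it was 1.81 and 3.45. The EtOH peaks themselves went the other way. Their medians were 455.5 bp (replicate 1) and 399.5 bp (replicate 2) with no MEIS1 list, and 377.5 and 336 bp with all 4. The induced peaks had medians of 627.5 and 780.5 bp with no MEIS1 list, against 739.5 and 1217.5 bp with all 4. Regions with 2 MEIS1 lists (98) and with 3 (101) had median ratios of 1.57 and 1.74 in replicate 1, and of 3.37 and 3.69 in replicate 2. The replicate 2 ratio was thus higher with 3 lists than with 4. At the 14 regions with 1 MEIS1 list the median ratios were 1.36 and 2.66. Of the 98 regions with 2 lists, 95 had those of MEIS1 replicate 2 under EtOH and 4-OHT. Of the 101 with 3 lists, 76 lacked only MEIS1 4-OHT replicate 1. The number of lists is thus no graded measure of MEIS1. A longer merged region also has more room for MEIS1 peaks: its median length was 786.5 bp with no MEIS1 list and 1389.5 bp with all 4. The part of region length in this pattern was not tested.

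**Figure D4:**
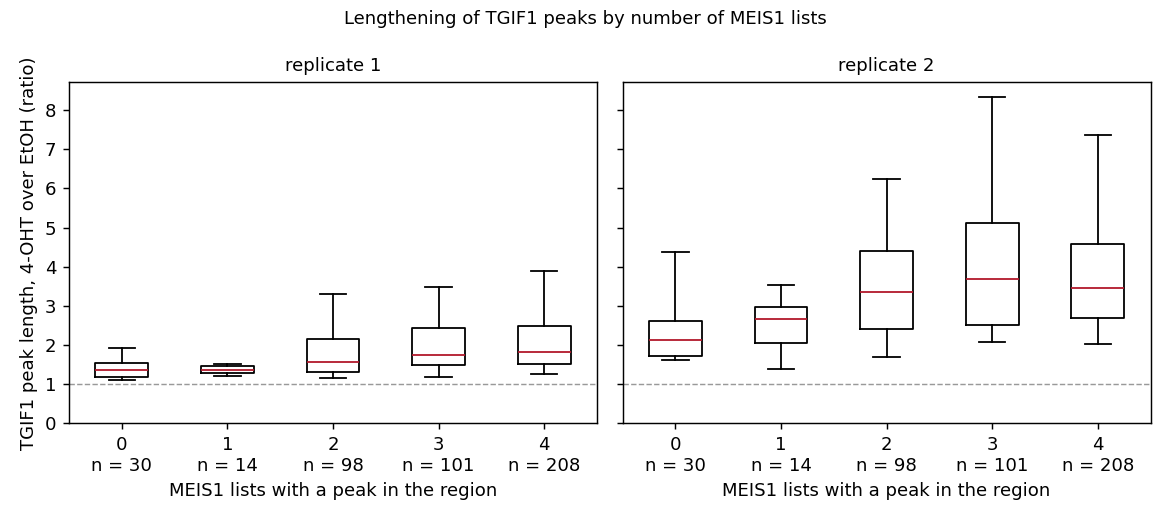
Ratio of TGIF1 peak length after 4-OHT to that under EtOH in the same region, for replicates 1 and 2, by the number of MEIS1 lists (0 to 4) with a peak in the region. Boxes show quartiles and medians, whiskers the 5th to 95th percentile, and the dashed line a ratio of 1. Medians go from 1.35 to 1.81 in replicate 1 and from 2.13 to 3.45 in replicate 2 between 0 and 4 lists.

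Among regions with a peak in all 8 lists, those with the longest EtOH peaks for their lists showed how the proteins lay relative to each other. The first, on chromosome 15 from 57907031 to 57908977, had TGIF1 peaks of 812 and 876 bp under EtOH and of 1245 and 1947 bp under 4-OHT. Its MEIS1 peaks were 789 and 1585 bp, then 923 and 1214 bp. The TGIF1 summits lay within 24 bp of the summit in EtOH replicate 1, and MEIS1 summits lay 2 and 15 bp away in 2 libraries and 289 and 311 bp away in the other 2. The second, on chromosome 17 from 87675343 to 87676953, had TGIF1 peaks of 847 and 724 bp, then 1143 and 1611 bp.

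Other regions of this set differed in the offset of MEIS1. On chromosome 14 from 106562502 to 106563843, MEIS1 summits of all 4 libraries lay within 66 bp of the TGIF1 EtOH replicate 1 summit, and the other TGIF1 summits 35 to 152 bp from it. On chromosome 2 from 34760052 to 34761378 they lay 405 to 426 bp from it, while TGIF1 summits lay 153, 470 and 140 bp away (EtOH replicate 2, 4-OHT replicate 1 and 4-OHT replicate 2). On chromosome 7 from 148660734 to 148661862 all other summits, of TGIF1 and MEIS1, were 136 to 158 bp from it. A pair of regions stood near each other on chromosome 3, from 40650285 to 40651793 and from 40697578 to 40699062, each with a peak in every list. In both, the TGIF1 4-OHT summits lay 200 to 219 bp from the EtOH replicate 1 summit, and the EtOH replicate 2 summit 24 and 18 bp from it. MEIS1 summits lay within 30 bp of it in both regions, except 1 of MEIS1 4-OHT replicate 1 at 206 bp in the first.

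TGIF1 summits before and after induction lay close together. The median distance between TGIF1 EtOH and 4-OHT summits was 14 to 22 bp over the 4 pairs of libraries, beside 21 bp between the EtOH replicates and 10 bp between the 4-OHT replicates. The EtOH summit lay inside the longest induced peak in 97.2 to 99.8% of regions. MEIS1 summits were farther off, at median distances of 38 to 74.5 bp from TGIF1 EtOH summits over 8 pairs of libraries. TGIF1 4-OHT and MEIS1 summits were within 50 bp of each other in 50.6 to 59.3% of the regions, and in 60.6 to 65.2% of induced-only regions. They were more than 200 bp apart in 28.5 to 33.6%, against 17.5 to 21.5%. Peaks at the 2 kinds of region differed in length, and a longer peak leaves more room for distance. In the 2 longest classes of TGIF1 4-OHT length, the median distance was 29 to 61 bp at regions bound before induction. At induced-only ones it was 99 to 158 bp, so the order turned. In the 4 classes below, the distances were 16.5 to 33 bp and 29 to 38 bp, and these ranges overlapped. Summits there were within 50 bp in 55 to 68.9% of regions bound before induction and 55.6 to 61.0% of induced-only ones. Distances of the 8 pairs share libraries and regions, and no test was made.

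**Figure D5:**
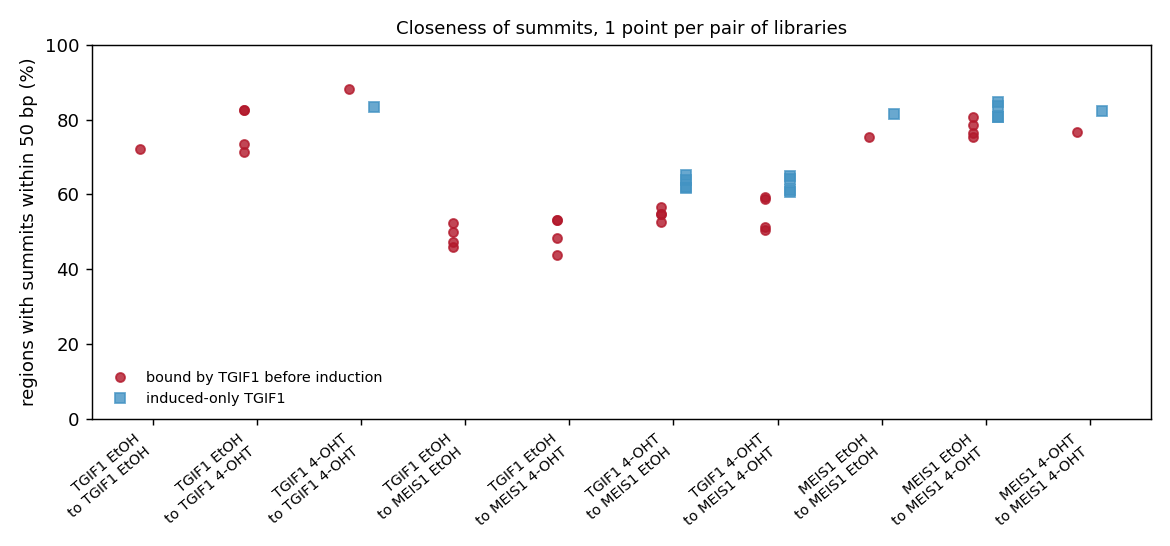
Percent of regions in which the summits of 2 libraries lay within 50 bp, 1 point per pair of libraries, by the groups compared. Circles are regions bound by TGIF1 before induction and squares induced-only regions, which have no TGIF1 EtOH peak. TGIF1 EtOH and 4-OHT summits were within 50 bp in 71.4 to 82.6% of regions, TGIF1 EtOH and MEIS1 summits in 43.9 to 53.1%.

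The merged regions were long, with a median of 1355 bp (quartiles 1002 and 1753, range 346 to 12157 bp), against 809.5 bp for induced-only regions. They lay on all 19 autosomes and X, and not in the same proportions as induced-only regions. Chromosome 15 held 47 (10.1%) of the regions and 5.59% of the induced-only ones, a ratio of 1.81. Chromosome 3 held 34 (7.31% against 4.76%, ratio 1.54), and chromosome 9 had the lowest ratio, with 14 (3.01% against 5.44%, ratio 0.553). Chromosome 15 made up 7.92% of the whole list of TGIF1 EtOH replicate 1 and 13.5% of that of replicate 2, but 5.39 to 6.33% of the other 6 lists. On this chromosome 35 of the 47 regions (74.5%) started beyond 70 Mb, against 60.5% of its induced-only regions. Their EtOH peaks had medians of 423 and 459 bp, beside 392 and 334 bp on the other chromosomes. Genes at these regions were not assigned, as an annotation and sequence of the mm9 build were not used here.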

How the data were processed

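The deposited lists, made by the authors with 1 list per library, give chromosome, start, end, length and summit offset of each peak in bp. The submitters' processing notes name the build mm9 and the tool Bowtie 0.12.7. A header in the list of MEIS1 4-OHT replicate 2 names MACS 1.4.2. For the remaining lists the peak caller is not given in the sources used here, nor are any thresholds or controls. No score or read number was in the lists, so depth is unknown and peak number, length and overlap all depend on it.

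Peaks of all 8 lists were merged at an overlap of 1 bp. In each region the longest peak of a library gave its length, its percentile within its list and its summit. Libraries were compared with two-sided exact permutation tests. Intervals of shares are exact (Clopper-Pearson, 95%). The members, comparisons and lists were chosen with earlier results of these data known. Named regions were the 10 with peaks in all 8 lists and the highest mean length percentile in the TGIF1 EtOH lists, those without a TGIF1 4-OHT peak, the 10 without a MEIS1 peak by the same percentile, and those at the edge of the overlap rule. Coordinates of some of these are not printed. A planned test of TGIF1 peak lengths is given as a description, since the EtOH lists chose the regions. Planned gene lists and motifs were not run without the mm9 genome. The merging code was checked against bedtools 2.31.1, with 465 of 465 regions equal, and recovered 84 of 84 regions planted in simulated lists. Python 3.11.15, numpy 2.4.6, pandas 2.3.3, scipy 1.17.1 and matplotlib 3.10.9 were used.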

Additional observations from a re-analysis of the deposited data

How the results depend on the processing

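The number of regions rests on the short list of TGIF1 EtOH replicate 2: leaving out single EtOH libraries gave 587 to 2659 regions, and the longer 50% of each list gave 226. Leaving out single libraries gave 86.2 to 99.1% for regions with both TGIF1 4-OHT peaks, 55.4 to 88.4% for both MEIS1 EtOH peaks and 46.2 to 88.6% for both MEIS1 4-OHT peaks. The upper ends are by construction the shares of the single library left in that group. It gave -24.2 to 12.6 points for the MEIS1 share after 4-OHT minus EtOH, 3.51 to 5.15 points for the excess over induced-only regions, and log2 length ratios of 0.90 to 1.67 for TGIF1 and -0.55 to 0.64 for MEIS1. The 3 shares of both libraries (TGIF1 4-OHT, MEIS1 EtOH, MEIS1 4-OHT) were 23.7%, 13.3% and 14.0% with a reciprocal overlap of 50% with a TGIF1 EtOH peak, 93.5%, 48.0% and 38.3% with summits within 200 bp, and 94.7%, 45.1% and 38.1% in the longer 50% of lists. A reciprocal overlap fails by construction where a peak is over 2 times as long as the other. With only the TGIF1 EtOH lists merged, MEIS1 EtOH stood at 55.1%. The excess of MEIS1 over induced-only regions turned to -1.60 points in the longer 50% of lists, and, in settings added after seeing the data, to -1.60 points weighted over length classes and -10.4 points in the 5th to 8th class. The closest pairs of TGIF1 EtOH and MEIS1 summits had a mean of medians of 39.9 bp, against 55.3 bp for the longest peaks. Without merged regions over 3000 bp, also added later, 98.9% had both TGIF1 4-OHT peaks.

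With the replicate number as a block the log2 length ratios were 1.29 for TGIF1 and 0.05 for MEIS1 (exact sign-flip p = 1.0 for MEIS1; 0.5 is the smallest for 2 pairs). Nothing in the labels says that numbers pair the libraries. In all, 52 of 79 alternative values were called the same as the main value, by rules that differed with the result. Differences and length ratios had to keep their direction. Shares and summit distances had to stay within their interval or spread. Numbers of regions had to stay within a fixed fold range, which 7 of 9 did. Not run were gene lists and motifs.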

Other observations

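Regions bound by TGIF1 before induction stood nearer to each other than induced-only regions stood to them. Another such region lay within 50 kb of 55 of the 465 (11.8%, exact 95% interval 9.04 to 15.1%), and of 485 of the 8692 induced-only regions (5.58%). The chromosome 6 tract held 7 of the 55, and the shares without the tract are not given here. Their surroundings held slightly fewer MEIS1 sites: the number of other regions with both MEIS1 EtOH peaks within 50 kb was 2.40 ± 2.14 (SD over 465 regions), against 2.87 ± 2.27 (SD over 8692), and 19.4% against 13.1% had none. These are descriptions of regions in the same libraries, with no test.

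Across the regions, peak lengths of MEIS1 libraries with the same replicate number were more alike than those of the same treatment. Spearman's rho was 0.66 between EtOH and 4-OHT replicate 1 (n = 215) and 0.74 between EtOH and 4-OHT replicate 2 (n = 403). It was 0.29 between the EtOH replicates (n = 287) and 0.34 between the 4-OHT replicates (n = 232). Lengths of TGIF1 4-OHT replicate 2 had a rho of 0.57 with MEIS1 EtOH replicate 2 (n = 411). With MEIS1 4-OHT replicate 2 it was 0.56 (n = 411). For MEIS1 replicate 1 it was lower, 0.12 under EtOH (n = 289) and 0.24 under 4-OHT (n = 236). For TGIF1 it was 0.08 with EtOH replicate 1 (n = 452) and 0.24 with EtOH replicate 2 (n = 452). With TGIF1 4-OHT replicate 1 it was 0.52 (n = 451). Lengths of TGIF1 4-OHT replicate 1 also had the higher rho with MEIS1 replicate 2. It was 0.41 under EtOH (n = 410) and 0.43 under 4-OHT (n = 411), against 0.31 (n = 295) and 0.36 (n = 241) with MEIS1 replicate 1. The EtOH replicates of TGIF1 had a rho of 0.59 (n = 465). The points are regions that share libraries and an unknown depth, and are not replicates.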
